A study of Homo sapiens with 6 samples.

Results

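Small RNA host genes are long non-coding RNA genes that carry small RNA genes inside them. They were selected by gene symbol, as the numbered SNHG genes with GAS5, DANCR, EPB41L4A-AS1 and ZFAS1 (snoRNA host genes) and as the genes named MIR followed by HG (microRNA host genes). This gave 75 of the 30230 genes in the deposited count table, of which 30 were snoRNA hosts and 45 microRNA hosts. The data are RNA-seq libraries of polyadenylated RNA from A549, an established human lung adenocarcinoma cell line. There were 3 control libraries (NC) and 3 libraries after silencing of FSCN1, which encodes the actin-bundling protein fascin (siFSCN1). Both groups were transfected. The methods give a scramble siRNA for NC and a single siRNA against FSCN1 for the silenced libraries, while the treatment label of the NC samples names a control plasmid. The methods call the libraries biological replicates and no label names separate cultures, so the p-values measure the spread between these libraries, which may be partly technical. The comparison asks which host transcripts differ when FSCN1 is silenced.

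Small nucleolar RNAs (snoRNAs) guide the modification of ribosomal RNA, the box C/D class (SNORD genes) directing 2′-O-methylation and the box H/ACA class (SNORA genes) pseudouridylation, and the related scaRNAs act on spliceosomal RNA in Cajal bodies. In human cells most of them lie in introns and are released when the host transcript is spliced and the excised intron is trimmed, after which the spliced host RNA of many SNHG genes is short-lived because translation exposes it to nonsense-mediated decay. MicroRNAs are cut as hairpins from the introns or exons of their hosts by the microprocessor (DROSHA with DGCR8) and then by DICER1, and the finished RNA pairs with messenger RNAs mainly through its seed, bases 2 to 8. The values below are those of the polyadenylated host RNA. Its level is not the level of the small RNA.

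The microRNA hosts whose RNA was higher in siFSCN1 include several that carry microRNAs with one shared seed, so their sequences are shown first. The 58 host genes tested held 57 annotated microRNA genes. For these RefSeq gave 102 mature sequences, a sequence being counted once for each gene that encodes it, with 80 different seeds. Of these seeds, 6 occurred in 2 or more hosts. The let-7 seed was the most widespread, in 6 hosts. The sequences below are from RefSeq on GRCh38 and run 5′ to 3′, with the seed in capitals.
hsa-let-7a-5p (in MIRLET7A1HG, MIR100HG and MIRLET7BHG): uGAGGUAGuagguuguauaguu
hsa-let-7d-5p (in MIRLET7A1HG): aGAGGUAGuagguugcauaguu
hsa-let-7c-5p (in MIR99AHG): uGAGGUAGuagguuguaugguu
hsa-let-7b-5p (in MIRLET7BHG): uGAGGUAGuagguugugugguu
hsa-miR-4500 (in MIR4500HG): uGAGGUAGuaguuucuu
hsa-miR-4458 (in MIR4458HG): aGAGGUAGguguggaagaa
hsa-miR-100-5p (in MIR100HG): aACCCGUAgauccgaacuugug
hsa-miR-99a-5p (in MIR99AHG): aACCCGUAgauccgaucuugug
hsa-miR-125b-5p (in MIR100HG and MIR99AHG): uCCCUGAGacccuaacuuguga
MIR100HG on chromosome 11 and MIR99AHG on chromosome 21 thus hold the same trio of families, miR-100/99a, let-7 and miR-125b. The remaining hosts that changed at least 2-fold carry other seeds, shown next for one microRNA each (2 for MIR29B2CHG and MIR17HG, where they share a seed).
hsa-miR-503-5p (in MIR503HG): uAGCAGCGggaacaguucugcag
hsa-miR-29c-3p (in MIR29B2CHG): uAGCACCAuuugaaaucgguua
hsa-miR-29b-3p (in MIR29B2CHG): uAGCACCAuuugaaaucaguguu
hsa-miR-17-5p (in MIR17HG): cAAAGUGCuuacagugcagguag
hsa-miR-20a-5p (in MIR17HG): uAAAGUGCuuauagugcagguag
hsa-miR-4453 (in MIR4453HG): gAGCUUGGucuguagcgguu
hsa-miR-194-5p (in MIR194-2HG): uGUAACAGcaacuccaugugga
hsa-miR-34a-5p (in MIR34AHG): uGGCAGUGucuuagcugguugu

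The libraries held between 27967301 and 36560919 counts. FSCN1 itself fell from 211, 220 and 212 CPM in NC to 18.3, 11.8 and 13.2 CPM in siFSCN1 (log2 fold change -3.89, SE 0.094, adjusted p = 8.10e-16), which left 6.75% of the NC level. CPM is a gene's count scaled by library size with the TMM correction for composition, and the 3 values of a group are always given in the order of replicates 1, 2 and 3. Adjusted p-values are from edgeR's quasi-likelihood test with Benjamini-Hochberg adjustment over the 17076 genes that passed a filter on low counts. A call required a 2-fold or larger change with an adjusted p under 0.05, and "rose" and "fell" are used for an adjusted p under 0.05. All 9 epithelial and A549 marker genes were detected, with summed deposited FPKM (fragments scaled by gene length and depth) of 6435 to 6967 in NC and 5437 to 5868 in siFSCN1. The endothelial markers summed to at most 0.04 FPKM, the fibroblast markers to at most 0.41 FPKM, and the leukocyte markers to 2.79 to 2.99 FPKM in NC and 3.86 to 4.83 FPKM in siFSCN1, with 2 of the 3 leukocyte markers that have a row under 0.1 FPKM. The part of these shifts in the results was not tested. In bulk RNA, fewer cells with a transcript and less of it per cell cannot be told apart.

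Of the 75 host genes, 58 passed the filter on low counts, 28 of 30 snoRNA hosts and 30 of 45 microRNA hosts. The other 17 (SNHG18, SNHG31 and 15 microRNA hosts) had at most 28 counts over all 6 libraries and at most 8 in any one. Of all tested genes, 16.5% were called changed, 11.7% higher and 4.85% lower in siFSCN1, and among the 2659 long non-coding RNA genes tested 30% were called, 26.2% higher and 3.84% lower. The split of all called genes depended on the scaling, at 1991 higher and 829 lower with TMM and 2637 higher and 510 lower with library totals. Against this background 5 of the 28 snoRNA hosts (17.9%) and 9 of the 30 microRNA hosts (30%) were called. The snoRNA hosts split in direction, with 2 called higher (SNHG14 and SNHG22) and 3 called lower (SNHG9, SNHG17 and SNHG16). All 9 called microRNA hosts were higher, a share near the 26.2% of long non-coding RNA genes called higher.

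Counting every adjusted p under 0.05, 7 snoRNA hosts rose, 12 fell and 9 did not pass, while 19 microRNA hosts rose, 1 fell and 10 did not pass. At this threshold 68.3% of all tested genes passed, 35.1% higher and 33.2% lower, and 52.9% of the long non-coding RNA genes, 40.6% higher and 12.3% lower. The CPM values of the groups did not overlap for 18 snoRNA hosts, 6 higher and 12 lower, and for 20 microRNA hosts, 19 higher and 1 lower. The same held for 71.3% of all tested genes (36.8% higher, 34.4% lower) and 57.5% of the long non-coding RNA genes (44% higher, 13.5% lower). The median log2 fold change was -0.062 for snoRNA hosts and 0.61 for microRNA hosts, beside 0.031 for all tested genes and 0.38 for long non-coding RNA genes. With upper quartile scaling the snoRNA host median became 0.056 while that of all genes became 0.15, and with library totals these were 0.12 and 0.22, so the sign of the snoRNA host median depended on the scaling and its place below the median of all genes did not.

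**Figure D1:**
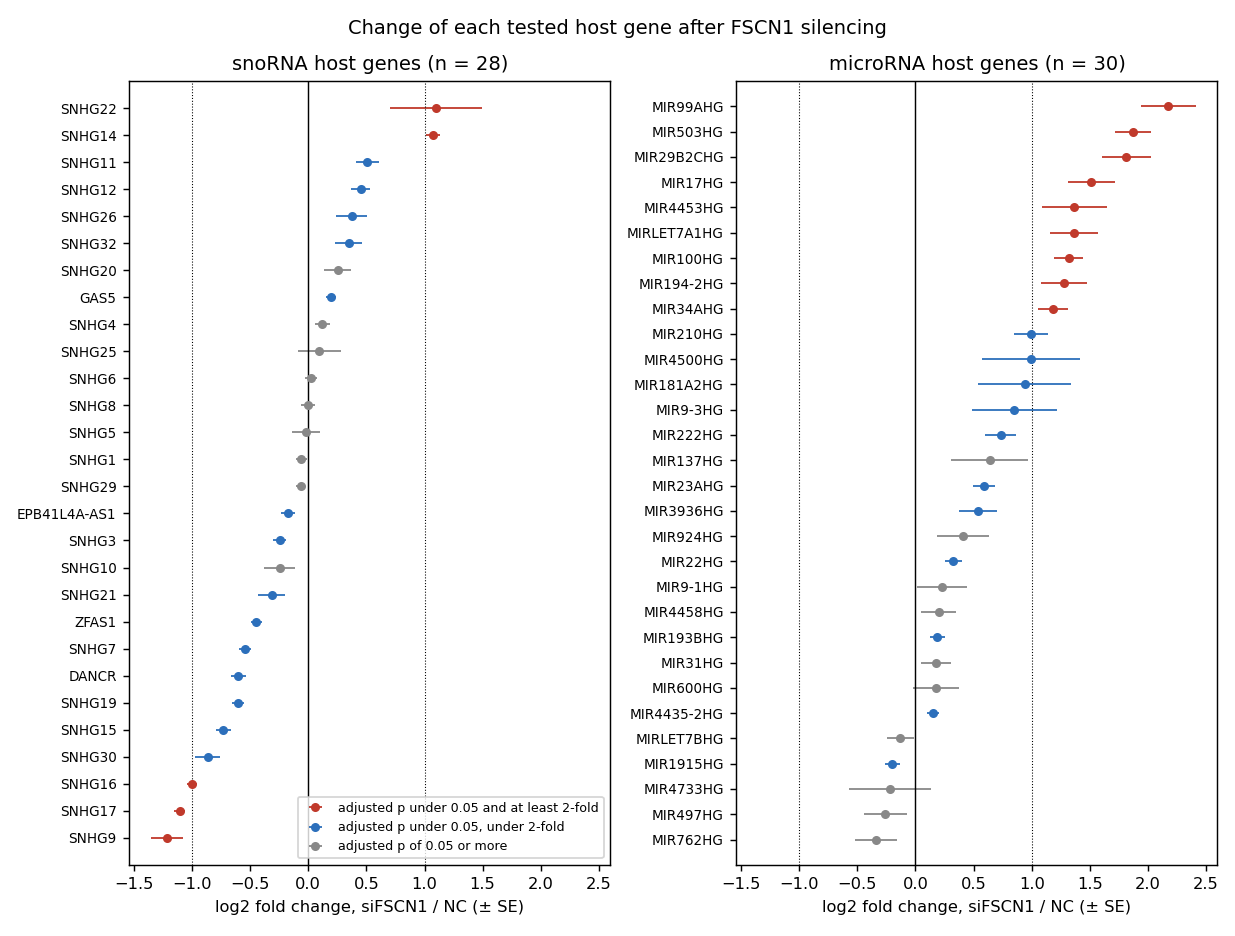
Log2 fold change (siFSCN1 over NC, x axis, with its standard error as a bar) of each tested snoRNA host gene (left) and microRNA host gene (right). Dotted lines mark a 2-fold change and colours the outcome of edgeR's quasi-likelihood test. The snoRNA hosts spread to both sides, from -1.21 to 1.10, and 25 of the 30 microRNA hosts lie above 0.

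The 2 classes also differed in level, which ran with the direction of change. The median FPKM over the 6 libraries was 4.96 for the tested snoRNA hosts and 0.541 for the tested microRNA hosts. In the stratum with a mean of 1 FPKM or more, the median log2 fold change was -0.21 for 24 snoRNA hosts, 0.26 for 10 microRNA hosts, -0.094 for all genes and 0.061 for long non-coding RNA genes. Below 1 FPKM it was 0.72 for 4 snoRNA hosts, 0.74 for 20 microRNA hosts, 0.40 for all genes and 0.59 for long non-coding RNA genes. In each of these sets the low genes thus had the higher median, and 7 of the 9 called microRNA hosts and both snoRNA hosts called higher were under 1 FPKM. At 1 FPKM or more, 12 of the 24 snoRNA hosts fell and 4 rose, beside 44.1% and 30.9% of all genes and 24.4% and 32.4% of long non-coding RNA genes at that level. A fit with the trend of fold change with abundance removed gave medians of -0.15 for snoRNA hosts and 0.33 for microRNA hosts. The median of all genes was -0.026 in that fit, which called 2 snoRNA hosts and 7 microRNA hosts. The part that level plays in the difference between the classes was not tested beyond these strata and that fit. Summed over the class, the snoRNA hosts made up 1690, 1687 and 1703 CPM in NC and 1516, 1469 and 1400 CPM in siFSCN1, and the microRNA hosts 179, 183 and 186 CPM in NC and 238, 248 and 232 CPM in siFSCN1. The sums of the groups did not overlap for either class.

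**Figure D2:**
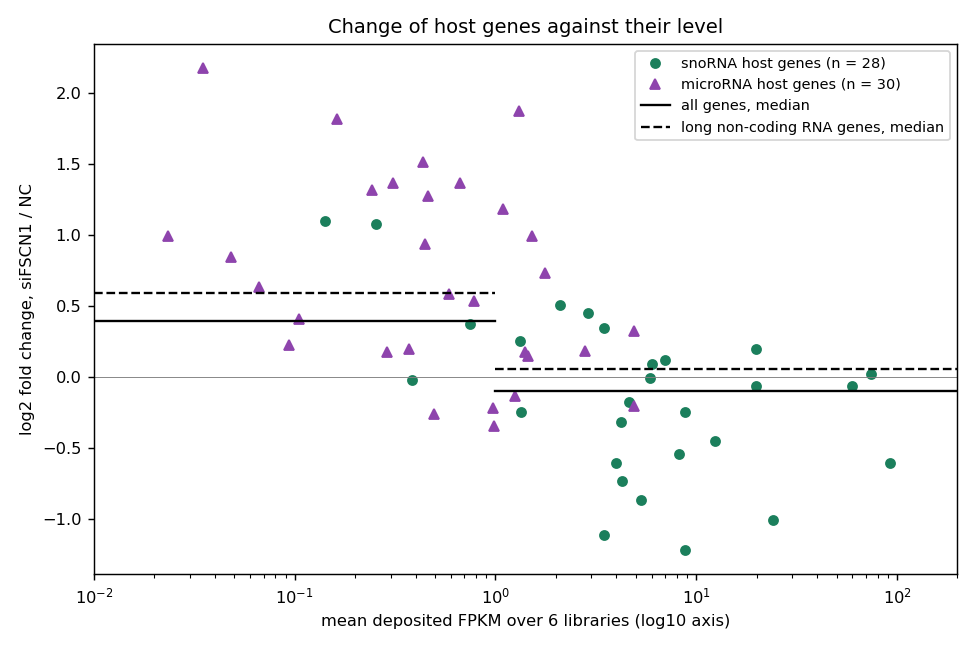
Log2 fold change (y axis) of the 28 snoRNA host genes (circles) and 30 microRNA host genes (triangles) against their mean deposited FPKM on a log10 axis. Horizontal lines give the medians of all tested genes (solid) and of long non-coding RNA genes (dashed) below and above 1 FPKM. Host genes under 1 FPKM lie mostly above 0, and those lowest on the y axis are snoRNA hosts above 1 FPKM.

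The snoRNA hosts called lower were SNHG9, SNHG17 and SNHG16. SNHG9 (ENSG00000255198.4, GRCh38 chr16:1964895-1965509, plus strand) hosts the H/ACA snoRNA SNORA78. It measured 7.51, 7.98 and 9.08 CPM in NC and 3.95, 3.83 and 2.83 CPM in siFSCN1, so every silenced library lay below every control, and the log2 fold change was -1.21 (SE 0.14, adjusted p = 3.07e-07). SNHG17 (ENSG00000196756.13, chr20:38419638-38435409, minus strand), host of 5 H/ACA snoRNA genes of the SNORA71 family, had 67.6, 68.7 and 68.6 CPM in NC and 33.1, 31.6 and 30.4 CPM in siFSCN1. Its change of -1.11 (SE 0.051, adjusted p = 1.39e-12) was far beyond the spread within either group. SNHG16 (ENSG00000163597.15, chr17:76557727-76670985, plus strand), which carries the C/D snoRNAs SNORD1A, SNORD1B and SNORD1C, went from 208, 206 and 208 CPM to 108, 104 and 98.4 CPM. Its log2 fold change of -1.001 (SE 0.042, adjusted p = 3.92e-13) lay just past the 2-fold limit, and the call was lost in 7 of 16 other settings, with values of -1.05 to -0.78 that all passed below 0. That of SNHG17 was lost in 5 of 16, between -1.16 and -0.72, and the call of SNHG9 in 1 of 16. None of the 5 called snoRNA hosts passed glmTreat, which tests against the 2-fold limit itself. SNHG11, the neighbour of SNHG17 on chromosome 20 and host of SNORA71E and SNORA60, rose by a log2 fold change of 0.51 (SE 0.099, adjusted p = 0.000189).

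Below the 2-fold limit, 9 more snoRNA hosts fell. SNHG30, host of SNORD7, had 14.1, 12.7 and 12.6 CPM in NC and 7.97, 6.74 and 6.89 CPM in siFSCN1 (log2 fold change -0.86, SE 0.11, adjusted p = 1.18e-06). SNHG15, host of SNORA9, had 25.1, 24.7 and 25.7 CPM against 15.9, 14.1 and 15.5 CPM (-0.73, SE 0.064, adjusted p = 1.10e-08). In SNHG19, host of SNORD60 and with 92.6 FPKM the highest host transcript per length, the values were 47.0, 45.3 and 45.2 CPM against 31.6, 29.7 and 29.2 CPM (-0.60, SE 0.052, adjusted p = 8.43e-09). For each of these 3 genes every silenced library lay well below every control. SNHG7, host of SNORA17A and SNORA17B, fell from 55.6, 59.2 and 56.9 CPM to 40.8, 39.4 and 37.7 CPM (-0.54, SE 0.052, adjusted p = 3.20e-08). ZFAS1, host of SNORD12, SNORD12B and SNORD12C, fell from 147, 138 and 143 CPM to 111, 103 and 100.3 CPM (-0.45, SE 0.045, adjusted p = 6.89e-08). SNHG3, host of SNORA73A and SNORA73B, had 49.2, 43.5 and 46.4 CPM in NC and 40.5, 37.1 and 39.9 CPM in siFSCN1, a smaller shift (-0.24, SE 0.057, adjusted p = 0.000950). On this scale its groups did not overlap, whereas its deposited FPKM of 9.47, 8.46 and 9.11 in NC and 8.95, 8.0 and 8.68 in siFSCN1 did, and with library totals it no longer passed (-0.057, adjusted p = 0.38). The other 3 were DANCR, host of SNORA26, at -0.60, SNHG21, host of SCARNA15, at -0.31, and EPB41L4A-AS1, host of SNORA13, at -0.17. The falls of SNHG21 and EPB41L4A-AS1 no longer passed with library totals (-0.13 and 0.013, adjusted p = 0.35 and 0.86).

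Several of the most abundant snoRNA hosts showed no difference past the test. SNHG29, host of SNORD49A, SNORD49B and SNORD65 and the host with the most counts, had 517, 518 and 520 CPM in NC and 518, 497 and 471 CPM in siFSCN1 (log2 fold change -0.065, SE 0.039, adjusted p = 0.147). SNHG1, with 8 different C/D snoRNAs from SNORD22 to SNORD31, had 92.5, 96.3 and 98.0 CPM and 93.2, 93.6 and 88.5 CPM (-0.059, SE 0.044, adjusted p = 0.245). For both the groups overlapped, and the sign depended on the scale, since their mean deposited FPKM was higher in siFSCN1 (57.4 and 61.6 FPKM for SNHG29, 19.1 and 20.6 FPKM for SNHG1) and library totals gave 0.12 and 0.13 with adjusted p = 0.0045 and 0.015. SNHG6, host of SNORD87, had 107, 111 and 108 CPM in NC and 118, 109 and 104 CPM in siFSCN1 (0.023, SE 0.048, adjusted p = 0.676). SNHG8, host of SNORA24, measured 48.8, 43.0 and 47.1 CPM and 47.3, 48.1 and 43.1 CPM (-0.0048, SE 0.059, adjusted p = 0.945), nearly the same range in both groups. SNHG4, host of SNORA74A, had 31.6, 37.9 and 36.9 CPM against 40.1, 38.7 and 37.0 CPM (0.12, SE 0.063, adjusted p = 0.0976). SNHG25, host of SNORD104 and SNORA50C, had 2.04, 1.71 and 2.02 CPM against 2.30, 1.91 and 1.97 CPM (0.096, SE 0.18, adjusted p = 0.654). SNHG20, a host transcript that the study discusses, had 9.79, 7.75 and 8.47 CPM in NC and 10.6, 9.56 and 10.9 CPM in siFSCN1. Its lowest silenced library lay below its highest control, and the log2 fold change of 0.25 (SE 0.11, adjusted p = 0.0569) did not pass. SNHG5 (-0.018) and SNHG10 (-0.25) did not pass either. With library totals, 6 of these 9 hosts passed in the higher direction, namely SNHG29 and SNHG1 as given, SNHG6 (0.21, adjusted p = 0.00044), SNHG8 (0.18, adjusted p = 0.0083), SNHG4 (0.31, adjusted p = 0.00028) and SNHG20 (0.44, adjusted p = 0.0021), so their outcome depended on the scaling. SNHG29 passed as lower without siFSCN1 replicate 1 (-0.11, adjusted p = 0.0097), and SNHG10 without NC replicate 3 (-0.38, adjusted p = 0.015) or siFSCN1 replicate 2 (-0.35, adjusted p = 0.033).

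GAS5, a growth-arrest transcript with 11 annotated snoRNA genes inside it, rose slightly. It measured 104, 104 and 108 CPM in NC and 124, 124 and 115 CPM in siFSCN1, with no overlap (log2 fold change 0.20, SE 0.044, adjusted p = 0.000586). SNHG12 (0.45), SNHG26 (0.37) and SNHG32 (0.35) also rose. Without NC replicate 1, SNHG26 and SNHG32 did not pass (edgeR, adjusted p = 0.10 and 0.067). With the abundance trend removed they did not pass either (adjusted p = 0.38 and 0.23). The 2 hosts called higher were low transcripts. SNHG14 (ENSG00000224078.15, chr15:24978583-25420336, plus strand) is the long transcript of the imprinted Prader-Willi region, with 84 annotated snoRNA genes inside, and runs antisense to UBE3A. It had 22.3, 23.2 and 24.7 CPM in NC and 46.9, 48.8 and 52.3 CPM in siFSCN1 (1.07, SE 0.058, adjusted p = 1.34e-11), which over its long annotated exons came to 0.150 and 0.360 FPKM. Its exons overlap those of SNRPN on the same strand and of UBE3A on the other, so its counts are uncertain. SNHG22, host of SCARNA17, had only 0.277, 0.380 and 0.175 CPM in NC and 0.640, 0.607 and 0.50 CPM in siFSCN1, that is 8, 10 and 6 counts against 22, 20 and 17. Its log2 fold change was 1.10 (SE 0.40, adjusted p = 0.0201), and the call was lost in 7 of 15 other settings, DESeq2 and leaving out NC replicate 3, siFSCN1 replicate 1 or siFSCN1 replicate 2 among them.

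Hosts were also split by the kind of small RNA inside. The 15 tested hosts of box C/D snoRNAs, MIR31HG of the microRNA class among them, had a median log2 fold change of 0.023. Of these, 5 rose and 4 fell. The 13 hosts of box H/ACA snoRNAs had a median of -0.17, with 3 rising and 7 falling. GAS5, SNHG12 and SNHG25 carry both kinds and were counted in both sets. Of the snoRNA hosts, 12 held a single snoRNA or scaRNA gene, microRNA genes not counted. Their median was -0.28 (1 rose and 7 fell), and that of the 16 with 2 or more was 0.039 (6 rose and 5 fell). Beside these counts, 35.1% of all tested genes rose and 33.2% fell, and at 1 FPKM or more 30.9% rose and 44.1% fell. For comparison, 241 tested protein-coding genes with a snoRNA or scaRNA gene inside had a median of -0.14. The 26 ribosomal protein genes among them all fell, by a median of -0.40, and only RPS2 reached a 2-fold change. Of the other 215 genes 43.3% fell, and of all genes of 1 FPKM or more 44.1%. The ribosomal protein genes had a median of 314 FPKM and the other 215 one of 4.76 FPKM. No genes at the level of the ribosomal protein genes were compared, and the part of level in their falls was not tested.

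Many snoRNA hosts belong to the 5′ terminal oligopyrimidine (TOP) class, whose RNA starts with a C and a run of pyrimidines read by translation regulators. RefSeq promoter windows (GRCh38) were found for 24 of the 28 tested snoRNA hosts. The letters CTTTT, a simple stand-in for such a run, were searched within 50 bases of the annotated start. They stood on the gene's strand in 8 of the 24 windows (33.3%) and in 10.9% of all 35116 promoter windows, and on the other strand in 8.33% and 10.3%. A run of 8 or more pyrimidines beginning with C was searched in the same stretch. It stood in 9 of the 24 windows (37.5%), in 29.4% of all windows and in 40.5% of the 42 microRNA host windows. MIR100HG, MIR99AHG and MIR9-3HG gave several of these 42 windows each, so that share weighs them more than other hosts. The median longest run was 6 bases in snoRNA hosts and in all windows. By this measure the snoRNA hosts stood out less. Hosts that rose and hosts that fell both held the letters CTTTT, 3 of 7 and 3 of 10. In GAS5 and SNHG26, which rose, the first match began before the annotated start, at offsets of -43 and -45 bases. Both also held the letters after the start, within pyrimidine runs that began at offsets of 31 and 10 bases. The first match also lay before the start in SNHG21, which fell (-19), and SNHG29, which did not pass (-9). A match could thus lie away from the start, and these counts are not counts of TOP transcripts. The stretch of 30 bases around the motif, in capitals, is shown for 3 hosts that start with it, SNHG5, which did not pass, SNHG19, which fell, and SNHG32, which rose, and for SNHG16, which fell and holds it 5 bases after the start.
SNHG5 (chr6:85678716-85678745, minus strand): gcgcacttcggtCTTTTacgtcggccttcg
SNHG19 (chr16:2155341-2155370, minus strand): gcccgcccctgtCTTTTcggggtcgagtcc
SNHG32 (chr6:31834904-31834933, plus strand): gccattttagttCTTTTtgcgaagtgggct
SNHG16 (chr17:76557757-76557786, plus strand): cggtctcgcgttCTTTTcgaggtcggccgc
The E-box letters CACGTG, which read the same on both strands, stood in the whole 300-base window of 2 of the 24 hosts (8.33%), SNHG7 and SNHG30, and in 7.26% of all windows. These matches are descriptions of sequence and not binding sites.

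Of the microRNA hosts, the largest fold change was that of MIR99AHG (ENSG00000215386.13, chr21:15928296-16646364, plus strand), host of miR-99a, let-7c and miR-125b-2. Its level was low, 0.658, 0.570 and 0.672 CPM in NC and 3.08, 3.40 and 2.18 CPM in siFSCN1, and the groups were far apart (log2 fold change 2.17, SE 0.23, adjusted p = 1.83e-07). Spread over its length this was 0.010 and 0.060 FPKM, and the call was lost with limma on the log2(FPKM + 0.1) and log2(FPKM + 1) scales, which compress low values. MIR100HG (ENSG00000255248.9, chr11:122028325-122556721, minus strand), host of the paralogous cluster with miR-100, let-7a-2 and miR-125b-1, rose from 4.08, 4.44 and 5.35 CPM to 10.5, 12.5 and 11.8 CPM (1.32, SE 0.12, adjusted p = 3.03e-08). MIRLET7A1HG (ENSG00000269929.3, chr9:94166258-94200905, plus strand), host of let-7a-1, let-7f-1 and let-7d, went from 1.07, 1.86 and 2.80 CPM to 4.85, 5.28 and 4.91 CPM (1.36, SE 0.21, adjusted p = 1.45e-05), with a wide spread among the controls that the silenced libraries nevertheless cleared.

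The 6 hosts whose microRNAs bear the let-7 seed did not move as one. MIR99AHG, MIRLET7A1HG and MIR100HG were called higher, and MIR4500HG rose by a log2 fold change of 0.99 (SE 0.42, adjusted p = 0.0432) at a level of 0.279 and 0.542 CPM. MIR4458HG, with means of 2.95 and 3.37 CPM (0.20, adjusted p = 0.247), and MIRLET7BHG, with means of 8.89 and 8.15 CPM (-0.13, adjusted p = 0.338), did not pass. On the FPKM scale, which allows levels of different genes to be compared, MIRLET7BHG had the highest mean over the libraries of the 6, 1.25 FPKM, and MIRLET7A1HG the next, 0.665 FPKM.

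MIR503HG (ENSG00000223749.11, chrX:134543119-134546642, minus strand), host of miR-503, a microRNA that shares its seed core with the miR-16 family of cell cycle regulators, was the called microRNA host with the highest FPKM in siFSCN1. It had 1.70, 1.79 and 2.31 CPM in NC and 6.31, 6.77 and 8.30 CPM in siFSCN1 (log2 fold change 1.87, SE 0.15, adjusted p = 4.17e-09). Its means were 0.510 and 2.12 FPKM. No annotated exon of another gene overlaps its exons, and of the 14 host genes called it was the only one whose call held in all 16 other settings (1.04 to 2.06) and with glmTreat, a test against the 2-fold limit itself (adjusted p = 8.15e-05). glmTreat also called MIR99AHG, MIR29B2CHG, MIR100HG and MIR17HG, with adjusted p from 0.000343 to 0.0375, and not the other 4 microRNA hosts.

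The remaining called microRNA hosts ran as follows. MIR29B2CHG (chr1:207760650-207879115), host of miR-29b-2 and miR-29c, which target collagen and other matrix messenger RNAs, had 0.900, 2.01 and 1.26 CPM in NC and 4.07, 5.22 and 5.21 CPM in siFSCN1 (log2 fold change 1.81, SE 0.21, adjusted p = 3.80e-07). MIR17HG (chr13:91347686-91397592), the primary transcript of the miR-17-92 cluster, a group of growth-promoting microRNAs, had 0.831, 1.22 and 0.906 CPM and 2.76, 2.85 and 2.77 CPM (1.51, SE 0.20, adjusted p = 2.37e-06). In both genes the lowest silenced library was more than 2 times the highest control. MIR4453HG (chr4:152536264-152539263) had 0.485, 0.456 and 0.818 CPM and 1.51, 1.34 and 1.80 CPM (1.37, SE 0.28, adjusted p = 0.000308). MIR194-2HG (chr11:64888458-64893455), host of miR-192 and miR-194-2, which are known from liver and gut epithelium and as p53 targets, had 1.32, 0.874 and 1.23 CPM and 2.62, 2.79 and 2.94 CPM (1.28, SE 0.20, adjusted p = 1.51e-05). MIR34AHG (chr1:9148011-9198906), the host of miR-34a, a p53-induced microRNA, had 5.33, 7.44 and 7.45 CPM and 14, 14.8 and 17.2 CPM (1.18, SE 0.13, adjusted p = 1.78e-07). In none of these genes did the groups overlap. The calls of MIR4453HG and MIR194-2HG were lost once the trend of fold change with abundance was removed and, like those of MIR29B2CHG, MIR17HG, MIR34AHG, MIR100HG and MIRLET7A1HG, on the log2(FPKM + 1) scale.

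**Figure D3:**
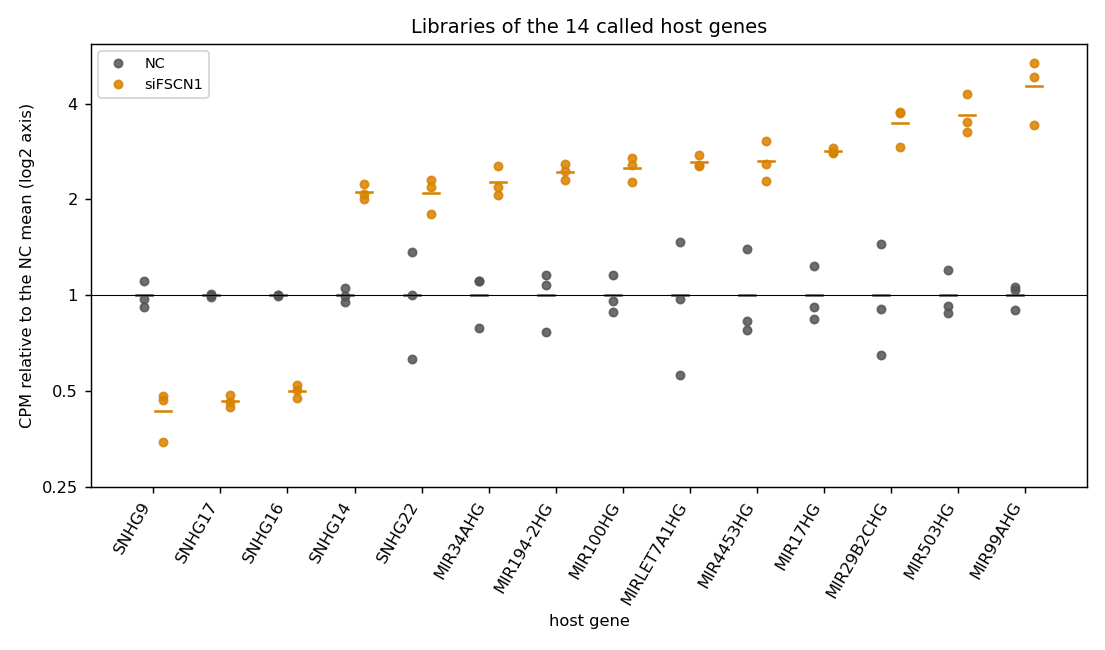
CPM of each library relative to the NC mean of its gene (log2 axis) for the 14 host genes called changed, with NC in grey, siFSCN1 in orange and short bars for the group means (n = 3). In every one of these genes the siFSCN1 points lie wholly on one side of the NC points, below them for SNHG9, SNHG17 and SNHG16 and above them for the others.

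Short of the 2-fold limit, 10 more microRNA hosts rose. MIR210HG, whose microRNA miR-210 is the classical hypoxia-induced microRNA, had a log2 fold change of 0.99 (SE 0.15, adjusted p = 9.72e-06), just under the limit, with 2.94, 2.77 and 2.51 CPM in NC and 6.22, 5.71 and 4.41 CPM in siFSCN1, and it passed the limit in 6 of 16 other settings. MIR4500HG (0.99) and MIR181A2HG (0.94), both with DESeq2 adjusted p above 0.05 (0.11 and 0.15), were the next below it, and SNHG30 (-0.86) was the nearest on the lower side. MIR22HG was the only microRNA host to reach a group mean of 5 FPKM. It carries miR-22 in its exon and rose from 15.1, 15.8 and 14.9 CPM to 19.7, 19.2 and 18.5 CPM (0.33, SE 0.070, adjusted p = 0.000469). The others were MIR9-3HG (0.85), which did not pass with DESeq2 (adjusted p = 0.11), MIR222HG (0.73), which holds the miR-221/222 pair, MIR23AHG (0.59), which holds miR-23a, miR-27a and miR-24-2, MIR3936HG (0.54), MIR193BHG (0.19) and MIR4435-2HG (0.15). MIR193BHG did not pass with DESeq2 either (adjusted p = 0.064). MIR3936HG and MIR4435-2HG did not pass without siFSCN1 replicate 2 (edgeR, adjusted p = 0.058 and 0.15). MIR9-3HG, MIR4500HG and MIR181A2HG also failed in several fits that leave out 1 library. MIR1915HG was the single microRNA host to fall (-0.20, adjusted p = 0.0110), and with library totals it no longer passed (-0.013, adjusted p = 0.87). The 10 that did not pass ran from -0.34 (MIR762HG) to 0.64 (MIR137HG). Hosts with 2 or more microRNA genes had a median of 0.84 (14 tested, 6 called, 42.9%) and hosts with a single one 0.28 (16 tested, 3 called, 18.8%). The median FPKM of the former was 0.455 and of the latter 0.979. Of all tested genes 16.5% were called, of long non-coding RNA genes 30%, and of those under 1 FPKM 35.5%. For comparison, 791 protein-coding genes with a microRNA gene inside had a median of -0.047.

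Host genes often lie head to head with, or across, another gene. The labels and the methods name library kits that keep the strand, but the strand setting of the counting was not given in the sources used here, so reads from overlapping exons on opposite strands may not be told apart. Of the 58 tested hosts, 35 overlapped an annotated exon on the opposite strand, 16 one on the same strand and 17 neither. Of the 14 called, 9 had an opposite-strand overlap. Among the 17 hosts without any overlap, 2 snoRNA hosts were called, both lower, and 3 microRNA hosts, all higher, with medians of -0.60 and 0.84.

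In 15 pairs a host started within 1000 bases of a gene on the other strand. Both genes were tested in 12 pairs, and in 7 of them both fold changes had the same sign. SNHG9 starts 54 bases from RPS2, the gene of a small-subunit ribosomal protein that itself hosts snoRNAs. RPS2 fell from 4174, 4064 and 4102 CPM to 1824, 1532 and 1472 CPM (log2 fold change -1.35, SE 0.059, adjusted p = 7.55e-13), beside -1.21 for SNHG9. MIR4453HG starts 172 bases from FBXW7, a ubiquitin ligase subunit that degrades MYC and cyclin E, which rose from a mean of 6.35 CPM to one of 10.6 CPM (0.74, SE 0.11, adjusted p = 6.56e-06). GAS5 (0.20) had a rising partner in ZBTB37 at 800 bases (0.79, adjusted p = 2.62e-05). In the other pairs the fold changes had opposite signs. SNHG19 fell while TRAF7, at 293 bases, rose from 98.5, 89.8 and 90.6 CPM to 137, 136 and 133 CPM (0.54, SE 0.044, adjusted p = 4.17e-09). SNHG22 was called higher and ACAA2, a mitochondrial thiolase gene at 12 bases, fell (-0.32, adjusted p = 1.64e-05). SNHG16 was called lower and the non-coding RP11-666A8.8, at 44 bases, was called higher on 18 counts over the 3 NC and 56 over the 3 siFSCN1 libraries (1.43, SE 0.44, adjusted p = 0.00798). MIR3936HG (0.54) and SLC22A5 at 460 bases (-0.54, adjusted p = 1.98e-07), and MIR4733HG (-0.22) and NF1 at 523 bases (0.30, adjusted p = 1.01e-04), were the other two. Among the pairs of 1 sign, a gene passed while its partner did not in several. SNHG1, which did not pass, lies 51 bases from SLC3A2, the heavy chain of amino acid transporters, which fell (-0.33, adjusted p = 3.65e-07). ZFAS1 fell while ZNFX1, at 248 bases, gave -0.0076 (adjusted p = 0.902), and MIR22HG rose while WDR81, at 651 bases, gave 0.11 (adjusted p = 0.0911).

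The small RNAs themselves were nearly out of reach of these libraries. Of the small RNA genes inside the hosts, 19 had a row in the count table, and 3 passed the filter on low counts. SNORD104, in SNHG25, had 34, 30 and 40 counts in NC and 77, 60 and 49 counts in siFSCN1 (log2 fold change 0.66, adjusted p = 0.0141), while its host gave 0.096. SNORA73B, in SNHG3, had 39, 10 and 8 counts against 16, 22 and 61, a spread within each group larger than the difference between the group means (0.60, adjusted p = 0.323). MIR762, in MIR762HG, gave -0.52 (adjusted p = 0.0657). The other 16 had at most 33 counts over all 6 libraries. Libraries of polyadenylated RNA do not select mature small RNAs, so these counts can include reads of host or precursor RNA.

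Genes that process small RNAs or act on their host transcripts were compared with all tested genes, of which 33.2% fell and 35.1% rose, and with those of a mean of 1 FPKM or more, of which 44.1% fell and 30.9% rose. All 8 core proteins of snoRNA particles fell. Their median log2 fold change was -0.35, beside 0.031 for all genes and -0.094 for genes of 1 FPKM or more. The levels were unlike, with a median of 53.9 FPKM for the core proteins and 4.66 FPKM for genes of 1 FPKM or more. No set of genes at the level of the core proteins was compared, and the part of level in their falls was not tested. NHP2, an H/ACA core protein, was the only one called, from 360 ± 9.69 (SD, n = 3) to 177 ± 7.70 CPM (SD, n = 3) with a log2 fold change of -1.02 (adjusted p = 1.84e-13). SNU13, the first C/D protein to bind (-0.55, adjusted p = 3.77e-09), and FBL, the fibrillarin methyltransferase (-0.54, adjusted p = 9.29e-10), followed. Of 15 tested assembly and scaRNA factors, 11 fell, 2 rose and 2 did not pass, and NOPCHAP1 had no row. WRAP53, which brings scaRNAs to Cajal bodies (-0.92, adjusted p = 3.35e-11), and the helicase RUVBL1 (-0.77, adjusted p = 1.96e-11) fell, and NOLC1, the nucleolar phosphoprotein Nopp140 that chaperones snoRNA particles, was called higher, from 67.8 ± 0.317 to 141 ± 4.58 CPM (SD, n = 3 each; 1.05, adjusted p = 2.86e-13).

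For the RNA side, 4 of 6 genes of intron lariat release and debranching fell and 2, the debranching enzyme gene DBR1 among them, did not pass. The largest falls were those of the helicase DHX15 (-0.52, adjusted p = 3.23e-09), XAB2 (-0.43, adjusted p = 2.16e-06) and TFIP11 (-0.39, adjusted p = 2.95e-06). The next 3 lists are short, and their counts stand beside the 44.1% of genes of 1 FPKM or more that fell and the 30.9% that rose. Of 18 nonsense-mediated decay genes, 8 fell, 5 rose and 5, with the central helicase UPF1 among them (0.019, adjusted p = 0.729), did not pass, and none reached 2-fold. EIF4A3, a core of the exon junction complex, changed most (-0.92, adjusted p = 4.33e-13), followed by SMG8 (-0.66, adjusted p = 3.00e-06). Among 9 regulators of TOP messenger RNAs 5 fell, 2 rose and 2 did not pass. RPTOR, the scaffold of mTOR complex 1, was called lower (-1.09, adjusted p = 7.35e-12), LARP1, the cap-binding repressor of TOP RNAs, fell (-0.88, adjusted p = 5.28e-12), and TIA1 rose (0.54, adjusted p = 1.57e-07). Of 8 genes for cutting and exporting microRNA precursors 5 fell and 3 rose. TARBP2, a DICER1 partner, was called lower (-1.16, adjusted p = 7.48e-12), DICER1 rose (0.61, adjusted p = 1.94e-08), and the exporter gene XPO5 fell (-0.49, adjusted p = 3.38e-07).

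**Figure D4:**
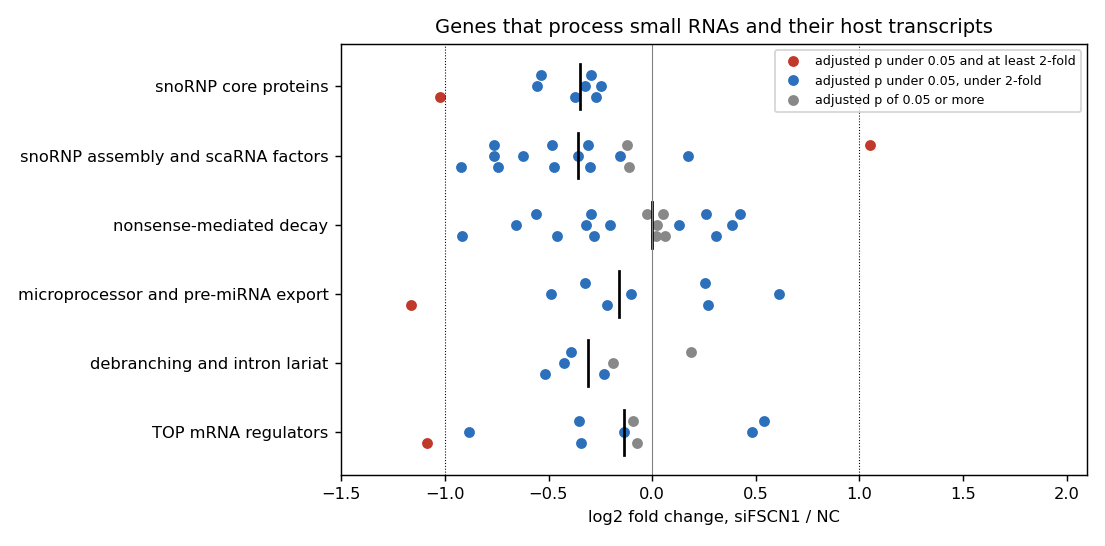
Log2 fold change (siFSCN1 over NC, x axis) of each tested gene in 6 lists of genes that act on snoRNAs, microRNAs or their host transcripts, 1 point per gene and a black bar at the list's median. Points are coloured by the outcome of edgeR's quasi-likelihood test and dotted lines mark a 2-fold change. All 8 snoRNA particle core proteins lie below 0, whereas the nonsense-mediated decay list is centred at -0.0027.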

How the data were processed

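Polyadenylated RNA of 6 A549 libraries was sequenced in pairs of 150-base reads. According to the methods, the authors used the FASTX Toolkit for trimming and HISAT2 for alignment to GRCh38 and retained unique alignments, whereas the submitters' processing notes name TopHat2 and bcl2fastq. The authors deposited whole-number counts per gene and FPKM. The program, strand setting and annotation release used for counting are not given in the sources used here. The host genes and all gene lists were chosen with earlier results of these data known.

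Counts were filtered with filterByExpr, scaled by TMM and tested with edgeR 4.0.16 (glmQLFit and glmQLFTest, R 4.3.3, no covariate), with Benjamini-Hochberg adjustment over 17076 genes. A call needed a 2-fold or larger change and an adjusted p under 0.05. SE was derived from the fold change and its F statistic. The fit was tested on simulated data. GENCODE v44 (GRCh38) held 99.7% of the 30230 identifiers and gave positions and overlaps, and small RNA genes were added from RefSeq. Values per library are given for host genes called changed, for those with a mean deposited FPKM of at least 5 in either group, and for SNHG20, and the other hosts by range and counts. The values per library of MIR210HG were added after they were seen. Of each list, the 3 passing genes of largest fold change are named, except 1 that is not reported here, and UPF1 and DBR1 were added after their values were seen. Same-numbered libraries did not deviate together (correlations of deviations -0.035, 0.040 and -0.084), so the main fit has no block. Alternatives were RLE and upper quartile scaling, library totals, DESeq2 1.42.0, no filter or a stricter one (a mean count of 10, and 1 CPM in 3 libraries), a replicate block, leaving out each library, limma 3.58.1 on log2(FPKM + 0.1) and log2(FPKM + 1), glmTreat, removal of the abundance trend by loess, and subsets of the hosts by level, annotated small RNA and exon overlap. No 2 libraries of a group agreed within sampling noise (chi-square per degree of freedom 3.06 to 8.15).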

Additional observations from a re-analysis of the deposited data

How the results depend on the processing

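The log2 fold change of FSCN1 ran from -4.11 to -3.41 over all settings. The replicate block gave 2827 genes changed, 5 snoRNA hosts and 9 microRNA hosts, and changed neither count of host genes. Leaving out 1 library in turn gave 4 to 5 snoRNA hosts, 9 to 10 microRNA hosts, and medians of -0.10 to -0.042 and 0.52 to 0.71. The numbers changed moved as follows. All genes (2820) gave 471 with limma on log2(FPKM + 1) and 1155 with glmTreat. The snoRNA hosts (5) gave 3 with upper quartile scaling, library totals, the stricter filter and a mean FPKM of at least 1 in either group, 2 with the abundance trend removed and in hosts without exon overlap, 1 with limma on log2(FPKM + 0.1), and 0 with limma on log2(FPKM + 1) (20 of them with an adjusted p under 0.05) and with glmTreat (3 at an unadjusted p under 0.05). The microRNA hosts (9) gave 1 with limma on log2(FPKM + 1), 5 with glmTreat, 2 at 1 FPKM or more and 3 without overlap. The snoRNA host median (-0.062) became 0.056 with upper quartile scaling, 0.12 with library totals, 0.10 and 0.072 with limma at 0.1 and 1, -0.15 with the trend removed, -0.21 at 1 FPKM or more and -0.60 without overlap. That of the microRNA hosts (0.61) became 0.73, 0.80, 0.41, 0.22, 0.33, 0.19 and 0.84 in the same order, and 0.72 with no filter. The split of all called genes was 1991 higher to 829 lower, 2637 to 510 with library totals and 1280 to 1235 with the trend removed. The causes were not tested.

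Of the 58 tested host genes 46 kept their sign in every setting, and 36 of 922 values reversed, in 12 genes near 0. Library totals gave 0.058 for MIRLET7BHG, 0.013 for EPB41L4A-AS1, 0.13 for SNHG1, 0.12 for SNHG29, 0.17 for SNHG5 and 0.18 for SNHG8. Upper quartile scaling gave 0.059 for SNHG1, 0.053 for SNHG29, 0.099 for SNHG5 and 0.11 for SNHG8. Limma on log2(FPKM + 0.1) gave 0.048 for MIRLET7BHG, 0.11 for SNHG1, 0.10 for SNHG29, 0.13 for SNHG5 and 0.16 for SNHG8, and on log2(FPKM + 1) 0.027, 0.10, 0.099, 0.045 and 0.14 for the same genes. With the trend removed MIR31HG gave -0.065, MIR4458HG -0.082, MIR600HG -0.15, MIR9-1HG -0.13, SNHG25 -0.23, SNHG1 0.13, SNHG29 0.24 and SNHG8 0.12. The stricter filter gave 0.010 for SNHG5 and 0.024 for SNHG8. Over the fits that leave out 1 library, SNHG5 ran from -0.078 to 0.058, SNHG8 from -0.065 to 0.031, SNHG6 from -0.043 to 0.056 and SNHG25 from -0.0045 to 0.14. SNHG16 lost its call without siFSCN1 replicate 3. Of the 39 host genes past an adjusted p of 0.05, 13 did not pass in 1 or more settings (4 with library totals), and of the 19 others 15 passed in 1 or more (10 with library totals). With 3 libraries a group, hosts under 1 CPM, such as SNHG22, carry standard errors of up to 0.42, and a 2-fold change in them can be missed.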
